A study of Mus musculus with 7 samples.

Results

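The genes described here are 34 neuronal differentiation and synaptic genes, taken from the deposited expression table by their gene symbols. The list was chosen with earlier results of these data known. All 34 were found among the 25461 genes of the table, and 33 of them reached the mean level of 1 FPKM over the embryos that was required for testing. FPKM (fragments per kilobase of transcript, scaled to the fragments of the library) is corrected for transcript length and library size, so that levels can be set side by side between genes. The study compared SLMAP3 knockout (KO) with wild-type (WT) mouse embryos of the B6C3F1 strain at embryonic day 11.5. There were 3 KO embryos, named KOAC8-6, KOAC10-5 and KOAC10-8, and 4 WT embryos, named KOAC8-1, KOAC10-7, KOAC9-1 and KOAC10-2. The tail was taken for genotyping and the rest of the body gave the RNA, so each library mixes the tissues of 1 embryo. SLMAP is a tail-anchored membrane protein of the STRIPAK phosphatase complex. In the KO line the loxP-flanked exon 3 had been removed with a CMV-driven cre, later bred out, which removes the long SLMAP3 isoform and leaves the shorter SLMAP1 and SLMAP2 isoforms. The KO is constitutive and present in every tissue, and the embryos descended from heterozygous crosses. In such RNA, fewer neurons and less RNA per neuron cannot be told apart.

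A neuron is born when a dividing neural progenitor leaves the cell cycle. The proneural bHLH factors and the transient factors that follow them, such as Nhlh1, Nhlh2 and the Myt1 family, act in this window, and the REST repressor, which keeps neuronal genes silent in other cells, is lost. The young neuron then makes its own tubulins and tubulin-binding proteins, neurofilaments, RNA-binding proteins of the Elavl family and adhesion proteins of the axon, and the proteins of synaptic vesicles accumulate as it matures. At this stage of mouse development, motor neurons, spinal interneurons and sensory and autonomic ganglia already hold neurons, whereas most of the forebrain is still made of progenitors.

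Promoter sequences (RefSeq, GRCm38.p6, from 250 bases before to 50 bases after each start) were on hand for 24 of the 34 genes. They were searched on both strands for CAGATG and CAGCTG, E-boxes of the kind that bHLH factors recognise, and for TTCAGCACC, the left part of the RE1 element that REST binds. The E-boxes differ in their middle bases, so that no match counts under both. CAGATG was found in 7 of the 24 genes (Celf3, Elavl4, L1cam, Myt1l, Nhlh1, Nhlh2 and Stmn3), and in 19.2% of all 27025 genes with a promoter. CAGCTG was found in 9 of the 24 (Celf3, Elavl2, Elavl3, Elavl4, Ina, Myt1l, Nhlh2, Stx1a and Syt1), and in 18.3% of all genes. The RE1 part was found in Syn1 alone, and in 0.433% of all genes. A gene counted if any of its promoters matched. The 24 genes had 48 promoters and all 27025 genes had 32851, so the 24 had more promoters per gene that could match. By promoter, CAGATG was in 14 of the 48 (29.2%) and in 17.2% of all. CAGCTG was in 14 (29.2%) and in 16.3% of all, and the RE1 part in 1 (2.08%) and in 0.371% of all. The sequences printed here, with the matched letters in capitals and each read 5′ to 3′ on the strand of its gene, are those before Nhlh2, the bHLH gene with the highest mean of the transcription factors in both genotypes, before its relative Nhlh1 and Stmn3, and before the synapsin gene Syn1. They lie at chr3:102009978-102010063 (Nhlh2, plus strand), chr1:172057754-172057839 (Nhlh1, minus strand), chr2:181314530-181314615 (Stmn3, minus strand) and chrX:20921102-20921168 (Syn1, minus strand). A match describes these letters and was not tested for binding.
Nhlh2: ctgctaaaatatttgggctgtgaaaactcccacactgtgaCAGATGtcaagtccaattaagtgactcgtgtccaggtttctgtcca
Nhlh1: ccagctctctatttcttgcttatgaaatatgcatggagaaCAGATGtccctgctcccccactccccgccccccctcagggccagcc
Stmn3: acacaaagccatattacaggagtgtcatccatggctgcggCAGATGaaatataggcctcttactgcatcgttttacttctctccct
Syn1: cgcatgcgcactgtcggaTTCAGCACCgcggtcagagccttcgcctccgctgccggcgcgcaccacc

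The targeted gene, Slmap, had means of 17.4 FPKM (KO) and 26.7 FPKM (WT), the former 65.1% of the latter, and its highest KO value was under its lowest WT value (two-sided exact permutation test over the 35 assignments of the embryos, p = 0.0286, the smallest that this design can give). The depth of the libraries relative to their mean, read from the steps between low FPKM values, ran from 0.809 to 1.20, and counts of reads were not used here. In 3 embryos, KOAC10-5 of the KO group and KOAC10-7 and KOAC10-2 of the WT group, the hepatoblast transcript Afp stood at 1.30 to 5.18 FPKM, against 255 to 376 FPKM in the other 4. The results on the neuronal genes are therefore also given without these 3 embryos.

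Neuronal transcripts were plentiful in every embryo. Tubb3, the neuron-specific beta-tubulin, had by far the highest level with a mean of 339 FPKM. Stmn2 with 132 FPKM and Gap43 with 106 FPKM followed, both growth cone proteins. A further 25 genes lay between 10 and 100 FPKM, from Nefm at 97.7 FPKM to Snap25 at 12.96 FPKM. St18, Rbfox3, Syt1, Myt1l and Syn1 stood between 1 and 10 FPKM. Nefh, the heavy neurofilament subunit that is made late in neuronal maturation, was the only one below 1 FPKM, at 0.666 FPKM. Several neighbours in this order did not differ beyond their spread, such as Celf3, Map2 and Ina, whose WT means ran from 89.2 to 90.8 FPKM with SDs of 3.75 to 8.79 (n = 4). Between the highest and the lowest embryo, the level differed by less than 1.5-fold for 23 of the 34 genes and by more than 2-fold for 2, Ncam1 and Myt1l.

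**Figure D1:**
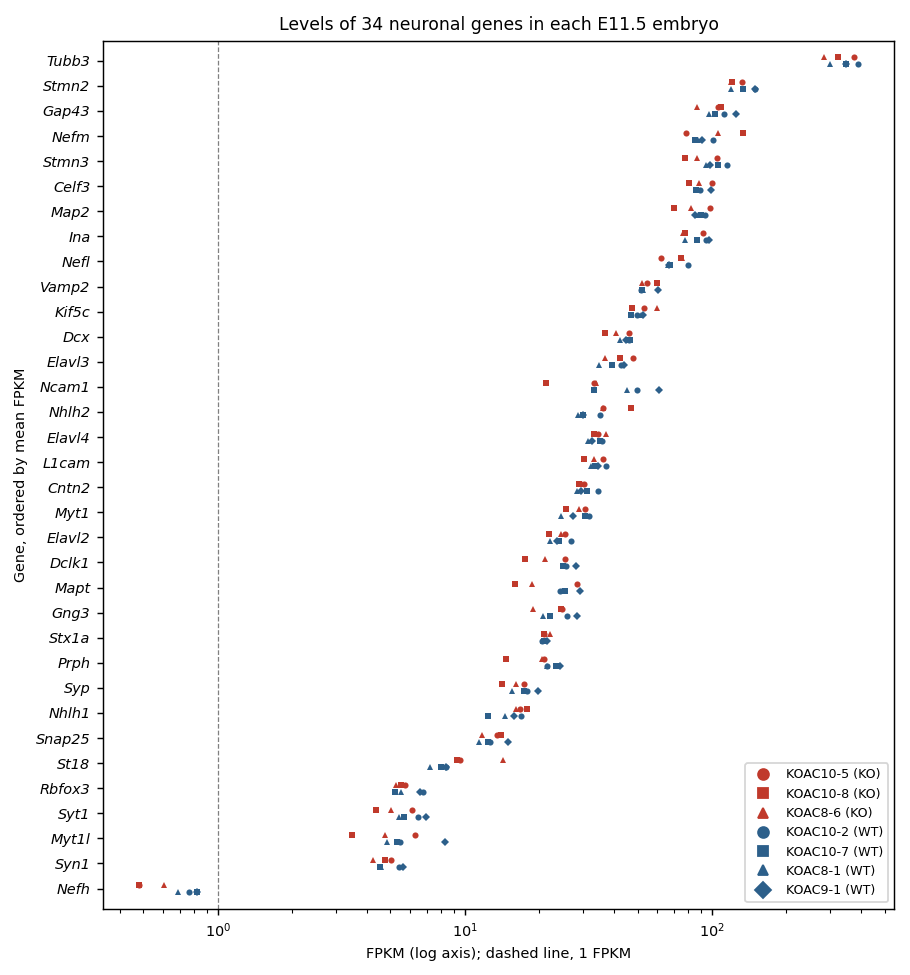
FPKM of the 34 neuronal genes in each of the 7 embryos on a log axis, ordered by mean level, with KO embryos in red and WT embryos in blue and 1 symbol per embryo. The order runs from Tubb3 at a mean of 339 FPKM to Nefh at 0.666 FPKM, and Ncam1 and Myt1l are spread over more than 2-fold.

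The comparison of KO with WT embryos asks whether loss of SLMAP3 goes with another level of these neuronal transcripts. No neuronal gene passed the test. By limma on log2(FPKM + 1), 0 of the 33 genes tested had a Benjamini-Hochberg adjusted p under 0.05, where 6 of all 16095 genes did (0.0373%). The smallest adjusted p of a neuronal gene was 0.356, for Nhlh2. The targeted gene Slmap was not called in this fit either, with a log2 fold change of -0.59 (limma, adjusted p = 0.278). At an unadjusted p under 0.05, 2 of the 33 genes, the transcription factor genes Nhlh2 and St18, were higher in KO embryos, beside 5.27% of all genes tested. Likewise 2, Ncam1 and Dclk1, were lower at that limit, beside 6.19% of all genes. For Nhlh2 and St18 the lowest KO embryo exceeded the highest WT embryo, and 5.61% of all genes tested had that order. The reverse order held for Prph among the genes tested, against 5.98% of all genes, and for the untested Nefh. These shares of 33 genes are close to the background. The median log2 fold change (KO minus WT) of the 33 genes was -0.09, beside 0.01 over all genes tested. The coefficient was negative for 22 of the genes and positive for 11, and 16 lay within 1 standard error of 0. The coefficients ran from -0.66 for Ncam1 to 0.40 for St18. Within a genotype, the median SD of these genes was 0.15 on the log2 scale, from 0.03 for Stx1a to 0.36 for Ncam1, beside 0.12 over all genes tested.

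Without the 3 embryos low in Afp, only the KO embryos KOAC8-6 and KOAC10-8 and the WT embryos KOAC8-1 and KOAC9-1 were left. No neuronal gene was called in this smaller fit, which had less power than the fit of all 7. At an unadjusted p under 0.05, 5 genes (15.2%) then differed, beside 1730 of all 16046 genes in that fit: Nhlh2 and Nefm were higher in the KO embryos and Ncam1, Dclk1 and Mapt lower. With all 7 embryos, the 4 genes were 12.1% of those tested, beside 11.5% of all genes in either direction. The number at this limit rested on single embryos. It was 11 (33.3%, beside 16.4% of all genes) without the KO embryo KOAC10-5. It was 2 (6.06%) without KOAC10-8 of the KO or KOAC10-7 or KOAC9-1 of the WT embryos, beside 7.80%, 9.50% and 7.85% of all genes in those fits.

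**Figure D2:**
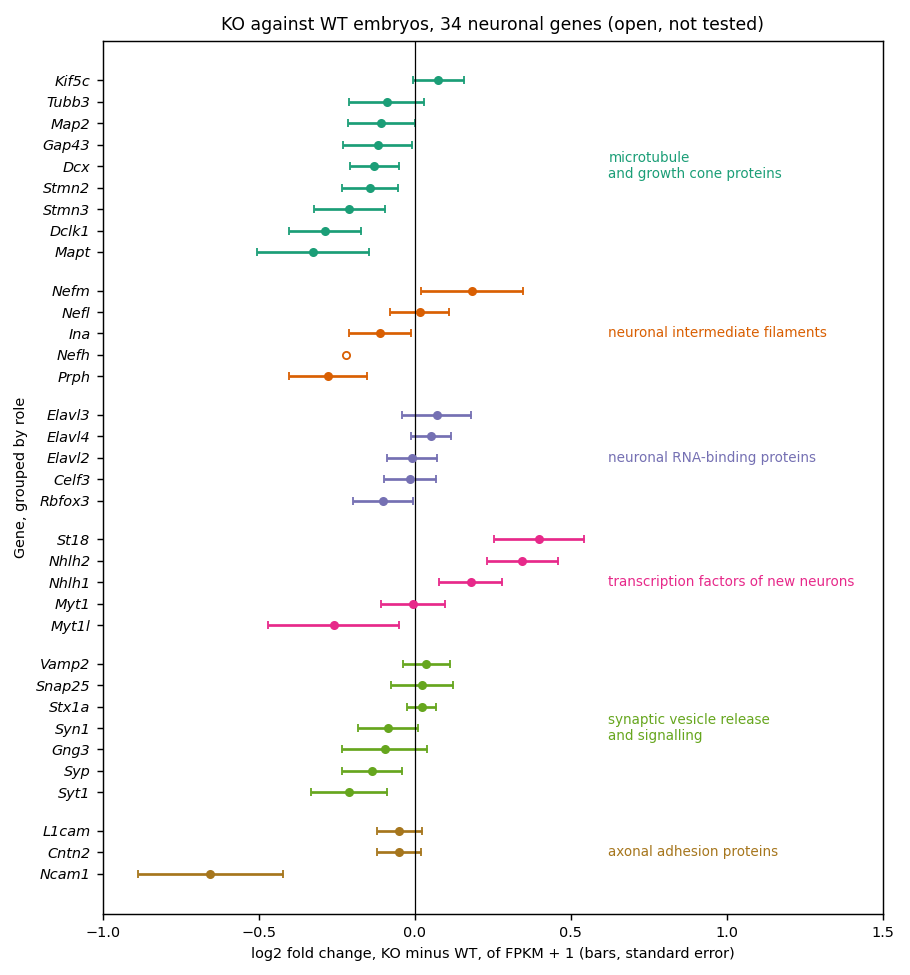
Log2 fold change (KO minus WT) of FPKM + 1 for each of the 34 neuronal genes, grouped by role, with the standard error of the limma fit as bars and the untested Nefh as an open point. Most points lie near 0; St18 (0.40) and Nhlh2 (0.34) lie farthest to the right and Ncam1 (-0.66) farthest to the left.

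Much of the variation lay between embryos of the same genotype. The KO embryo KOAC10-5 lay within the range of the WT embryos for 24 of the 34 genes, above it for 6 and below it for 4. KOAC10-8 lay below that range for 14 genes and above it for 4, and KOAC8-6 below it for 14 and above it for 6. KOAC10-5 thus had the highest value of the KO embryos for 21 genes, and KOAC10-8 the lowest for 20. The FPKM of all genes summed to 861448 in KOAC10-8 and to 770063 to 813357 in the other embryos of both genotypes. Among the WT embryos, KOAC9-1 had the highest value of all 7 embryos for 15 genes, among them 6 of the 7 synaptic vesicle and signalling genes, all but Stx1a, and it was the lowest for 0. The WT embryo KOAC8-1 was the lowest of all for 8 genes and the highest for 0. Such counts by embryo were not made over all genes tested, so whether they are particular to the neuronal genes cannot be told. Averaged over the 34 genes, log2(FPKM + 1) was 4.90 ± 0.08 (SD, n = 3) in KO and 4.97 ± 0.09 (SD, n = 4) in WT embryos. These averages overlapped between the genotypes, from 4.83 to 4.99 in KO and from 4.87 to 5.06 in WT embryos.

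**Figure D3:**
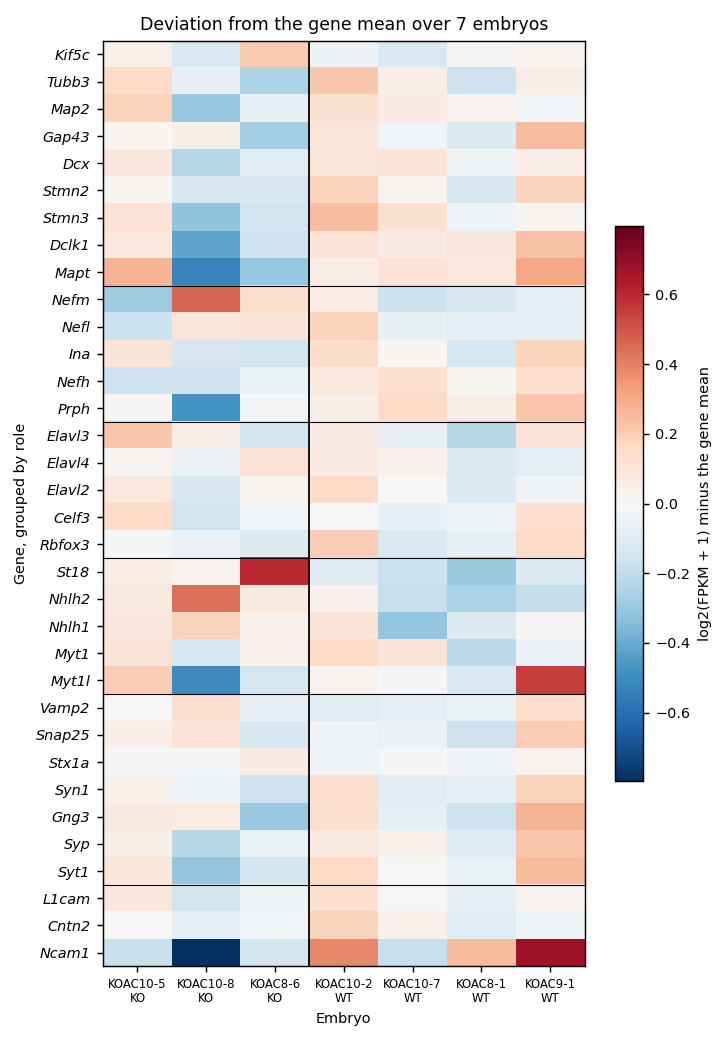
Deviation of log2(FPKM + 1) from the gene's mean over the 7 embryos, for 34 neuronal genes in rows grouped by role and the embryos in columns, KO on the left of the black line. Red is above and blue below the mean; KOAC9-1 is above the mean for most synaptic genes, and Nhlh2 and St18 are above it in all 3 KO embryos.

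Of the 5 transcription factors of new neurons, Nhlh1, Nhlh2 and St18 had positive coefficients and Myt1l and Myt1 negative ones, with a median of 0.18 that was 0.10 without KOAC10-7. Nhlh2 (chr3:102010076-102015492, plus strand), a bHLH factor switched on as progenitors leave the cell cycle, whose promoter stretch is shown above, stood at 36.2, 36.4 and 47.1 FPKM in KOAC8-6, KOAC10-5 and KOAC10-8. In the WT embryos KOAC8-1, KOAC10-7, KOAC9-1 and KOAC10-2 it stood at 28.7, 30.1, 30.0 and 35.3 FPKM. The groups did not overlap, although the highest WT embryo, KOAC10-2, lay close under the lowest KO embryos and KOAC10-8 was well above the rest. The log2 fold change was 0.34 ± 0.11 (SE; limma, adjusted p = 0.356). It was 0.22 without KOAC10-8 and 0.48 without the 3 embryos low in Afp.

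St18 (chr1:6487231-6860940, plus strand), a zinc finger factor of the Myt1 family, had 14.3, 9.55 and 9.31 FPKM in KOAC8-6, KOAC10-5 and KOAC10-8, and 7.25, 7.99, 8.38 and 8.42 FPKM in KOAC8-1, KOAC10-7, KOAC9-1 and KOAC10-2. The groups did not overlap, and KOAC8-6 alone was far above the others. The log2 fold change was 0.40 ± 0.14 (SE; limma, adjusted p = 0.391), and without KOAC8-6 it was 0.21. Nhlh1, the close relative of Nhlh2, had means of 16.9 ± 0.932 (KO, n = 3) and 14.9 ± 1.91 FPKM (WT, n = 4; SD), which overlapped. Myt1 had nearly the same mean in both, 28.4 and 28.6 FPKM. Myt1l, which represses non-neuronal genes in maturing neurons, had 4.84 ± 1.39 FPKM (KO) and 5.98 ± 1.57 FPKM (WT), with KOAC10-8 lowest at 3.49 FPKM and KOAC9-1 highest at 8.30 FPKM.

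Of the 9 microtubule and growth cone genes, 8 had negative coefficients and Kif5c, the heavy chain of a kinesin motor of axons, a positive one. Their median log2 fold change was -0.13, and 1 of them, Dclk1, was lower at an unadjusted p under 0.05. Without KOAC10-5 the median was -0.21 and 5 were lower, in a fit where 16.4% of all genes passed that limit in either direction. Without KOAC10-8 the median was -0.11 and 0 were lower. Tubb3 (chr8:123411424-123422015, plus strand) had 284, 376 and 323 FPKM in KOAC8-6, KOAC10-5 and KOAC10-8 and 302, 350, 349 and 392.02 FPKM in KOAC8-1, KOAC10-7, KOAC9-1 and KOAC10-2. Its groups overlapped widely, with a log2 fold change of -0.09 ± 0.12 (SE; limma, adjusted p = 0.790) that was 0.01 without KOAC8-6.

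Dclk1 (chr3:55242364-55539068, plus strand), a microtubule-associated kinase related to doublecortin, had 21.2, 25.4 and 17.6 FPKM in KOAC8-6, KOAC10-5 and KOAC10-8. It had 25.5, 25.0, 28.2 and 25.7 FPKM in KOAC8-1, KOAC10-7, KOAC9-1 and KOAC10-2. KOAC10-5 lay among the WT embryos, and the other KO embryos below all of them. The log2 fold change was -0.29 ± 0.12 (SE; limma, adjusted p = 0.419), and -0.16 without KOAC10-8. Mapt, which encodes the axonal protein tau, had the most negative coefficient of the group, -0.33 ± 0.18 (SE; limma, adjusted p = 0.526). Like Dclk1, it stood at WT levels in KOAC10-5 (28.5 FPKM) and lower in KOAC8-6 (18.8 FPKM) and KOAC10-8 (15.9 FPKM), where the WT embryos ran from 24.4 to 29.2 FPKM. Its coefficient was -0.61 without the 3 embryos low in Afp and -0.16 without KOAC10-8. For the remaining genes, the microtubule destabilisers Stmn2 and Stmn3, doublecortin (Dcx), the dendritic protein Map2, Gap43 and Kif5c, the coefficients ran from -0.21 for Stmn3 to 0.07 for Kif5c, and the KO and WT embryos overlapped.

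The neuronal intermediate filaments did not move together: Nefm and Nefl had positive and Prph, Ina and Nefh negative coefficients. The coefficient of Nefl, 0.01, was negative in 8 of the 21 alternatives, down to -0.10 with the KOAC10 embryos alone, and up to 0.17 without the 3 embryos low in Afp. Nefm (chr14:68082590-68124846, minus strand), the medium neurofilament subunit, had 106, 78.8 and 133 FPKM in KOAC8-6, KOAC10-5 and KOAC10-8 and 88.0, 85.7, 91.5 and 101 FPKM in KOAC8-1, KOAC10-7, KOAC9-1 and KOAC10-2. The KO embryos thus held both the lowest and the highest value. The log2 fold change was 0.18 ± 0.16 (SE; limma, adjusted p = 0.683). It was 0.00 without KOAC10-8 and 0.40 without the 3 embryos low in Afp. In the annotation, 19.2% of the exonic bases of Nefm and 32.8% of those of Nefl overlap each other on opposite strands. The library kit keeps no strand, so their reads there cannot be told apart, and both genes' levels are uncertain to that extent.

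Prph (chr15:99055174-99058978, plus strand), peripherin, is typical of neurons that send axons out of the central nervous system, such as motor, sensory and autonomic neurons. It had 20.6, 20.98 and 14.7 FPKM in KOAC8-6, KOAC10-5 and KOAC10-8 and 21.6, 23.4, 24.4 and 21.5 FPKM in KOAC8-1, KOAC10-7, KOAC9-1 and KOAC10-2. The KO embryos all lay below the WT embryos, closely so except for KOAC10-8. The log2 fold change of -0.28 ± 0.12 (SE; limma, adjusted p = 0.456) was -0.12 without KOAC10-8. Nefh (chr11:4938754-4948064, minus strand) had 0.604, 0.481 and 0.480 FPKM in the KO embryos in the same order and 0.688, 0.824, 0.824 and 0.763 FPKM in the WT embryos. These did not overlap either, but the gene lay under the limit for testing, and the difference of -0.22 on the log2(FPKM + 1) scale understates a change at such a level. Ina, which encodes alpha-internexin, had means of 82.4 ± 8.69 (KO, n = 3) and 89.2 ± 8.79 FPKM (WT, n = 4; SD), and 14.1% of its exonic bases overlap Nt5c2 on the other strand. Nefl had 71.0 ± 7.56 and 70.2 ± 6.44 FPKM.

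**Figure D4:**
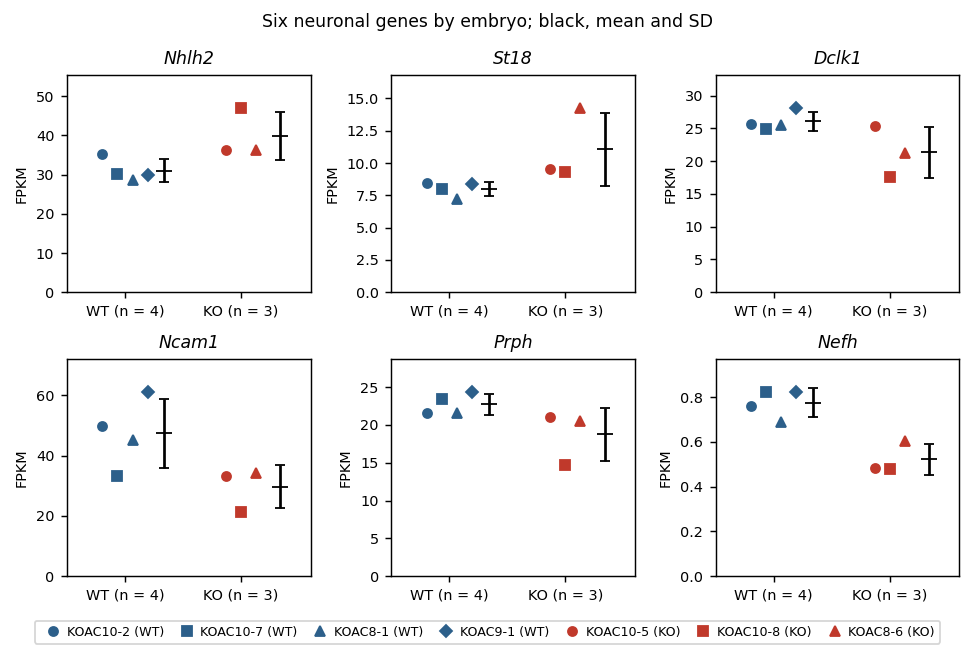
FPKM by embryo for the transcription factor genes Nhlh2 and St18, the kinase gene Dclk1, the adhesion gene Ncam1 and the filament genes Prph and Nefh, with WT embryos in blue, KO embryos in red, 1 symbol per embryo and black marks for the mean and SD (n = 4 WT, n = 3 KO). KO embryos all lie above the WT embryos for Nhlh2 and St18 and below them for Prph and Nefh, while the groups overlap for Dclk1 and Ncam1.

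Of the 3 axonal adhesion genes, Ncam1 (chr9:49502136-49798925, minus strand) had the most negative coefficient of all 33 genes. It was at 34.1, 33.3 and 21.4 FPKM in KOAC8-6, KOAC10-5 and KOAC10-8 and at 45.2, 33.3, 61.1 and 49.7 FPKM in KOAC8-1, KOAC10-7, KOAC9-1 and KOAC10-2. The WT embryo KOAC10-7 lay at the level of the KO embryos, and the other WT embryos above all of them. The log2 fold change was -0.66 ± 0.23 (SE; limma, adjusted p = 0.385), -0.45 without KOAC10-8 and -0.94 without the 3 embryos low in Afp. Ncam1 is made by developing muscle as well as by neurons. The 9 skeletal muscle markers, Myog, Myod1, Myf5, Myh3, Myl1, Actn2, Tnnt1, Chrna1 and Ttn, summed to 82.8 to 129 FPKM in KO and 182 to 274 FPKM in WT embryos. All 9 were detected and had negative coefficients, 7 of them at an unadjusted p under 0.05, beside 6.19% of all genes lower at that limit. By limma, 0 had an adjusted p under 0.05. Their median log2 fold change was -0.76, and -0.49 without KOAC10-8. The embryo lowest in Ncam1, KOAC10-8, was also the lowest in this sum, and the highest, KOAC9-1, was also the highest. The order did not match in the other embryos. KOAC10-7, KOAC8-6 and KOAC10-5 had nearly the same Ncam1 level, but muscle sums of 200, 125 and 129 FPKM. The part of muscle in the Ncam1 values was not tested. The neuronal adhesion genes L1cam and Cntn2, whose products guide and bundle axons, had coefficients of -0.05 ± 0.07 each, with means of 33.3 and 29.7 FPKM in KO and 34.5 and 30.9 FPKM in WT embryos.

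The neuronal RNA-binding proteins varied little with genotype, with a median log2 fold change of -0.01, which was 0.06 without KOAC10-8, and coefficients from -0.10 for Rbfox3 to 0.07 for Elavl3. Celf3 (chr3:94478295-94492198, plus strand), a splicing regulator, had the highest level of the 5. It had 89.0, 100 and 80.8 FPKM in KOAC8-6, KOAC10-5 and KOAC10-8 and 88.2, 86.2, 98.7 and 89.9 FPKM in KOAC8-1, KOAC10-7, KOAC9-1 and KOAC10-2. Its groups overlapped, and the log2 fold change of -0.02 ± 0.08 (SE; limma, adjusted p = 0.958) took the opposite sign in some alternatives. The Elavl genes, which encode RNA stabilisers that mark neurons from their birth, had KO and WT means of 24.0 and 24.2 FPKM (Elavl2), 42.4 and 40.3 FPKM (Elavl3) and 35.03 and 33.8 FPKM (Elavl4). Rbfox3, the NeuN antigen of mature neurons, had 5.51 ± 0.219 (KO, n = 3) and 6.02 ± 0.759 FPKM (WT, n = 4; SD).

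The 7 genes of synaptic vesicle release and signalling had a median log2 fold change of -0.09, with 4 negative and 3 positive coefficients. The median was -0.13 without KOAC10-5 and -0.0041 without KOAC8-6. Vamp2 (chr11:69088490-69092384, plus strand), the vesicle SNARE, had 52.0, 54.4 and 59.7 FPKM in KOAC8-6, KOAC10-5 and KOAC10-8. It had 52.4, 52.0, 60.3 and 51.5 FPKM in KOAC8-1, KOAC10-7, KOAC9-1 and KOAC10-2. The groups overlapped, with a log2 fold change of 0.04 ± 0.08 (SE; limma, adjusted p = 0.882). Its partners on the plasma membrane, Stx1a and Snap25, had coefficients of 0.02 each, and Stx1a varied least of all 34 genes, between 20.6 and 22.1 FPKM over the 7 embryos. The calcium sensor Syt1 had -0.21 ± 0.12, the vesicle membrane protein Syp -0.14 ± 0.10, the vesicle-tethering protein Syn1 -0.09 ± 0.10 and the G protein subunit Gng3 -0.10 ± 0.14 (log2 fold change ± SE). Of the exonic bases of Gng3, 24.2% overlap Bscl2, and of those of Syp, 16.8% overlap Gm14703, in both cases on the other strand.

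Other genes of the same processes, in lists that were chosen by function, were described in the same fit. By limma, 0 genes of any of the 9 lists had an adjusted p under 0.05. The counts that follow are therefore at an unadjusted p under 0.05. Of all genes tested, 5.27% were higher and 6.19% lower in KO embryos at that limit. Genotypes did not overlap for 5.61% of all genes tested with KO higher, and for 5.98% with KO lower. Whether the count of any list differed from these shares was not tested. Of 20 other presynaptic release genes tested, 6 were lower in KO embryos and 0 higher, and the median log2 fold change was -0.16. Among the lower genes were Sv2a, Syt5, Sv2c, Cplx1 and Rab3a. Sv2a, a glycoprotein of synaptic vesicles, had means of 7.68 ± 2.08 (KO, n = 3) and 10.6 ± 0.786 FPKM (WT, n = 4; SD), which overlapped.

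Of 11 postsynaptic scaffold and adhesion genes tested, 1 was lower and 0 were higher, with a median of -0.11. This was Nlgn3, a neuroligin, with means of 5.65 FPKM (KO) and 7.97 FPKM (WT); the scaffold gene Shank1 had 5.66 and 7.23 FPKM. All 13 genes of sodium, calcium and potassium channels that were tested had negative coefficients, with a median of -0.18, and 1 of them, the sodium channel subunit Scn3b, was lower, with 6.01 FPKM (KO) and 8.74 FPKM (WT). Scn2a had 2.35 and 3.21 FPKM. Both channel genes were lowest in KOAC10-8, and in KOAC10-5 they lay in the range of the WT embryos.

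Of 20 other axon growth and microtubule genes, 3 were lower and 0 higher, with a median of -0.13. Among them were Nsg1, an endosomal protein of neurons, with 111 FPKM (KO) and 133 FPKM (WT), and Dpysl3, a collapsin response mediator, with 118 and 140 FPKM. Of 11 genes of neurotransmitter synthesis and transport tested, 1 was lower and 0 were higher, with a median of -0.07. This was Ddc, the decarboxylase of dopamine and serotonin synthesis, with 6.96 ± 0.405 (KO, n = 3) and 7.82 ± 0.218 FPKM (WT, n = 4; SD), without overlap. Dbh, the enzyme that makes noradrenaline, had 1.39, 0.559 and 1.03 FPKM in the KO embryos, and 3.12, 1.38, 6.13 and 1.57 FPKM in the WT embryos KOAC8-1, KOAC10-7, KOAC9-1 and KOAC10-2. Of 12 neuronal splicing regulators, 2 were lower and 0 higher, with a median of -0.12. Khdrbs2, a STAR-family splicing factor, had means of 4.40 ± 2.13 and 8.05 ± 0.607 FPKM without overlap, and Rbfox1 had 5.07 and 6.62 FPKM.

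These counts rested on single embryos. Without the KO embryo KOAC10-8, the count of lower genes was 1 for the presynaptic list, 1 for the splicing regulators and 0 for the postsynaptic, channel, axon growth and neurotransmitter lists. The medians were then 0.00 for the postsynaptic list, -0.01 for the splicing regulators and the neurotransmitter list, -0.07 for the channels, of which 2 had positive coefficients, and -0.08 for the axon growth list. Without KOAC10-5, the counts of lower genes were 9 presynaptic, 5 postsynaptic, 5 channel, 7 axon growth, 3 neurotransmitter and 7 splicing genes, and the medians ran from -0.25 for the channels to -0.17 for the neurotransmitter list. Without KOAC8-6 or KOAC9-1, the postsynaptic, axon growth and neurotransmitter lists had 0 lower genes and the presynaptic list 1 and 2. The axon growth list also had 0 lower genes without KOAC10-2, the channels without KOAC8-1 or KOAC9-1 and the neurotransmitter list without KOAC8-1. Without the 3 embryos low in Afp, the counts in the order above were 7, 2, 4, 6, 2 and 3. No gene of these lists was called at an adjusted p under 0.05 by limma under any of the 21 alternatives.

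The lists of identity factors, proneural factors and REST with its corepressors had positive medians, unlike the splicing regulators at -0.12. Of 20 identity transcription factors of postmitotic neurons tested, 2 were higher and 1 was lower, with a median of 0.09. Onecut1, a factor of early-born motor neurons and interneurons, had 3.46, 3.37 and 3.83 FPKM in the KO embryos and 2.61, 2.39, 2.27 and 2.55 FPKM in the WT embryos (log2 fold change 0.40 ± 0.08 SE; limma, adjusted p = 0.274), without overlap. Ebf2, a factor of differentiating neurons, had 14.2 and 16.0 FPKM. Of 8 proneural bHLH factors tested, 1 was higher (Neurod4) and 2 were lower, with a median of 0.18. Neurod6 and Neurod2, factors of differentiating forebrain neurons, were the lower ones. Neurod6 had 0.256, 1.43 and 0.109 FPKM in KOAC8-6, KOAC10-5 and KOAC10-8 and 1.13, 1.80, 3.75 and 1.84 FPKM in the WT embryos, and Neurod2 had means of 0.510 and 1.43 FPKM. Of the 7 genes of REST and its corepressors, 2 were higher and 1 was lower, with a median of 0.05. Rcor2, a corepressor that partners REST, reached 98.3, 96.4 and 105 FPKM among KO embryos, compared with 77.3, 75.5, 69.9 and 88.9 FPKM among WT embryos (0.36 ± 0.08 SE; limma, adjusted p = 0.285). Ctdsp2, a phosphatase, had 70.2 and 76.6 FPKM. Without KOAC10-8 the median of the identity factors was 0.01 and that of the proneural factors 0.14. Of the proneural factors, 0 were then higher and 0 lower, as also without KOAC8-6, and 3 were higher and 2 lower without KOAC10-5. The median of the REST list was -0.04 without KOAC8-6.

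**Figure D5:**
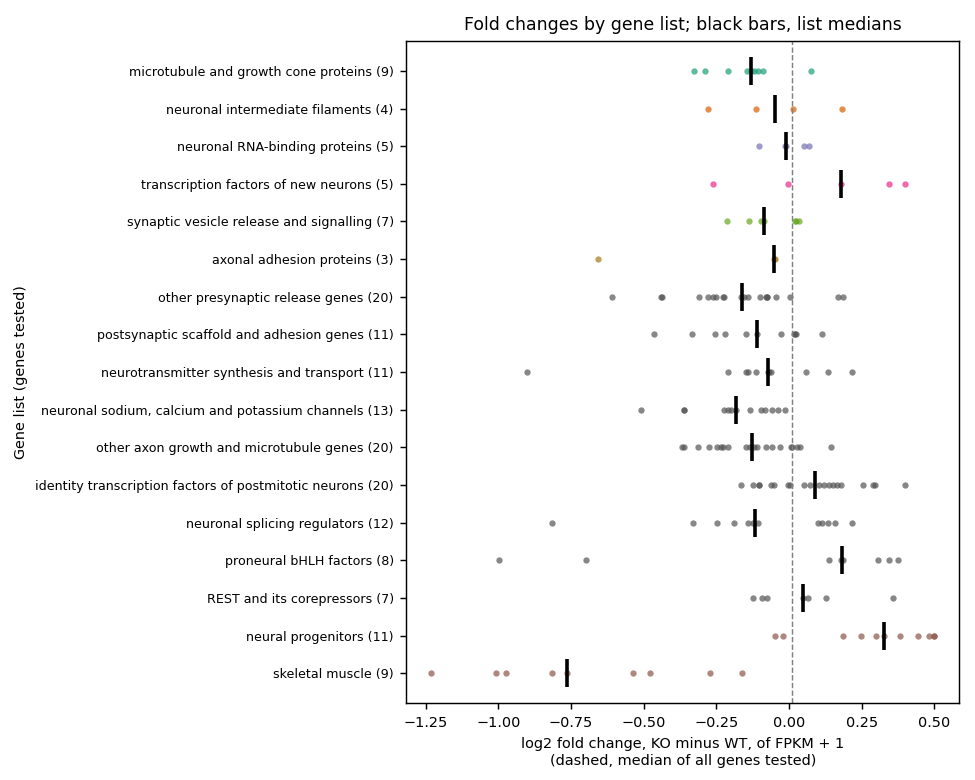
Log2 fold change (KO minus WT) of each gene tested, by list, with black bars for list medians and the dashed line for the median of all genes tested (0.01). The presynaptic, channel and axon growth lists have medians from -0.18 to -0.13, the transcription factors of new neurons and the proneural factors 0.18, the neural progenitor markers 0.33 and the skeletal muscle markers -0.76.

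Markers of the other cells that an embryo holds were read beside the neuronal genes. At an unadjusted p under 0.05, 5.27% of all genes tested were higher and 6.19% lower with all 7 embryos. The shares of all genes in fits with embryos left out are those given above, and they count both directions together. Of 11 neural progenitor markers (Sox1, Sox2, Sox3, Nes, Pax6, Hes5, Fabp7, Msi1, Prom1, Notch1 and Vim), 8 were higher in KO embryos at an unadjusted p under 0.05 and 0 lower, with 0 called by limma at an adjusted p under 0.05 and a median log2 fold change of 0.33. The number of higher markers was 7 without the 3 embryos low in Afp and 5 without KOAC10-8. Their sums overlapped, from 1603 to 1861 FPKM in KO and from 1399 to 1628 FPKM in WT embryos. The mean log2(FPKM + 1) of the 34 neuronal genes minus that of the 11 progenitor markers was -1.18, -1.18 and -1.51 in KOAC8-6, KOAC10-5 and KOAC10-8 and -0.95, -0.95, -0.72 and -1.05 in KOAC8-1, KOAC10-7, KOAC9-1 and KOAC10-2. All KO embryos thus lay below all WT embryos on this difference, while the neuronal mean itself overlapped. Of all single genes tested, 5.98% had that order, but no such share was computed for differences between list means. Of the 11 progenitor markers alone, 6 were higher in every KO embryo than in every WT embryo, beside 5.61% of all genes tested. Both lists were chosen with earlier results of these data known, and the difference was not tested. Of 7 markers of neural crest and early glia, 2 were lower, Erbb3 among them, and 0 higher, with a median of -0.03, and 0 were lower without KOAC10-8. Their sums were 57.0 to 60.7 FPKM in KO and 59.2 to 63.2 FPKM in WT embryos. Of 5 tested genes of endocrine and neuroendocrine cells, which share vesicle proteins with neurons, 0 passed that limit in either direction (2 were lower without KOAC10-5), with a median of -0.16 and sums over all 6 of 51.0 to 57.3 and 49.3 to 64.0 FPKM. Of 6 markers of primitive erythroid cells, 2 were lower (Hbb-y and Hba-a1) and 0 higher, with a median of -0.39, which was -0.08 without KOAC10-5, and sums of 14176 to 18978 and 20499 to 25637 FPKM. Of 7 heart markers, 3 were higher and 0 lower, with a median of 0.22, which was 0.09 without KOAC10-8. Their number of higher markers was 0 without KOAC10-8, KOAC10-5, KOAC8-1 or KOAC9-1, 1 without KOAC10-7 and 2 without KOAC8-6 or KOAC10-2. They had sums of 526 to 674 and 481 to 570 FPKM. Of 9 hepatoblast markers, 0 passed, and the median of 0.24 took either sign when single embryos were left out, from -0.45 without KOAC10-7 to 1.45 without KOAC10-5. Without the 3 embryos low in Afp, 5 of them were lower. They had sums of 15.8 to 553 FPKM in KO and 6.35 to 821 FPKM in WT embryos. The part of the other cell types in the neuronal values was not tested.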

How the data were processed

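The authors deposited FPKM values, 1 per gene and embryo, made from TruSeq RNA v2 libraries. The submitters' processing notes name Salmon, DESeq2, MultiQC and GRCm38, with no version. FPKM keeps no count of reads, and longer or shared transcripts can change it. The authors' own comparison of genotypes (mean signal, fold change, its error and p-values), deposited beside the FPKM, was not used, and every FPKM column was matched to 1 embryo by name (unmatched: 0).

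Genotypes came from the labels. Genes averaging 1 FPKM or more in the 7 embryos entered the test, made on log2(FPKM + 1) by limma 3.58.1 in R 4.3.3 (lmFit, eBayes with trend, two-sided, all 7 embryos, no covariate), with p adjusted by Benjamini-Hochberg across every tested gene and a threshold of 0.05. Fold changes on this scale understate changes of low genes. The fit was tested on simulated data. Replicates are separate embryos, and the meaning of the number after KOAC in their names is not stated.

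The 34 genes and the other lists (9 pathway lists and markers of neural progenitors, neural crest and early glia, hepatoblasts, erythroid cells, skeletal muscle, heart and endocrine cells) were chosen with earlier results of these data known. Values in every embryo are given for neuronal genes with an unadjusted p under 0.05, for those whose genotypes do not overlap and for the gene of each role with the highest mean. For each pathway list, the 2 tested genes with the smallest p are named, except for an item that is not reported here. Other genes were named after their values were seen. Positions are from GENCODE M21 (GRCm38), promoters from RefSeq. Pseudocounts, filters, scalings, covariates, weights and left-out embryos were varied in 21 alternatives.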

Additional observations from a re-analysis of the deposited data

Results flagged for a closer look

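Of the 34 neuronal genes, 2 had a WT embryo that stood apart from the other 3 in its group, and chance alone flags about 1 in 20 groups. Nefl stood at 79.8 FPKM in KOAC10-2 and at 66.6 to 67.6 FPKM in the other WT embryos, a gap of 0.926 of the group's whole range. Vamp2 stood at 60.3 FPKM in KOAC9-1 and at 51.5 to 52.4 FPKM in the others, a gap of 0.894 of the range. Groups of 3, such as the KO embryos, were not examined.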

How the results depend on the processing

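In all 21 alternatives, 0 neuronal genes were called, and their median log2 fold change stayed between -0.13 and -0.03. Over all genes, the number called was 6; it was 13 with the KOAC10 embryos alone, 10 with log2 Afp as a covariate, 7 to 12 when single embryos were left out, and 17 without the 3 embryos low in Afp, an alternative chosen after seeing the data. The number of neuronal genes at an unadjusted p under 0.05 was 4. It was 2 with the KOAC number as a block, 0 with the KOAC10 embryos alone and 3 with a common FPKM sum. When single embryos were left out, it was 2 to 11. Nhlh2 stayed under that limit in 20 alternatives, St18 in 17, Ncam1 in 15 and Dclk1 in 10. Coefficients near 0 changed sign: Celf3 was 0.025 with the block, 0.032 with the KOAC10 embryos alone, 0.00044 with embryo quality weights and -0.096 to 0.059 when single embryos were left out. Under the same omission Tubb3 ran from -0.20 to 0.0084 and Vamp2 from -0.019 to 0.089, and Vamp2 was -0.012 without the 3 embryos low in Afp. The cause of these changes was not tested. The KOAC number, of which both genotypes share 8 and 10, served as the block, but no source states that it pairs embryos. With 3 and 4 embryos, no read counts and 16 of 33 coefficients within 1 standard error of 0, differences of the size seen for most of these genes could not be told from the spread between embryos.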
